A study of Mus musculus with 9 samples.

Results

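All 6 libraries from injured mice, 3 without and 3 with electrical stimulation, were pooled as 1 group and set against the 3 sham libraries. They were chosen by their labels alone, and together with the sham libraries they make up all 9 libraries of the series. The pooled comparison asks which genes differ from sham in motoneuron libraries of injured mice, whether or not the mice were stimulated. Per the labels, each library holds RNA of spinal cord motoneurons of wild-type mice. These cells carried a fluorescent label called TRDA and were drawn by glass electrode from slices of fresh cord 4 weeks after injury. Glial transcripts were abundant in all libraries, as given with the motoneuron markers. Sham mice had no treatment, untrained mice had the spinal cord injury, and SBES mice had the injury followed by synergistic bidirectional electrical stimulation at 10, 15 or 20 Hz. Each frequency has 1 library, so SBES 1, 2 and 3 differ in frequency and cannot be read as 3 repeats of 1 dose. Each group came from 3 mice per the labels, which say neither which mouse gave which library nor how many neurons it holds, so p-values measure only the spread between libraries, which may be technical. Strain, sex and age were not given in the sources used here. Count columns of the untrained libraries and of SBES 1 were matched to their labels by elimination.

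Motoneurons send acetylcholine to muscle and make peptides such as calcitonin gene-related peptide (CGRP). Cells short of oxygen switch on genes through hypoxia-inducible factors, which bind a short core motif beside their targets. Glucocorticoids act through a receptor that binds palindromic DNA elements, and many cells of the nervous system respond to them. Cholesterol, the main sterol of myelin and of neuronal membranes, is made in the spinal cord itself by a chain of enzymes that the factor SREBP2 controls through sterol regulatory elements.

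Libraries held 11821145 to 17675948 counts and 21791 to 23929 detected genes. Scaling factors were lowest in sham 1 (0.727) and SBES 1 (0.760) and lay between 1.02 and 1.16 in the others. The share of mitochondrially encoded genes was 18.6% in SBES 1, 7.36% in sham 1 and 2.47% to 6.27% elsewhere. Malat1, a nuclear noncoding RNA, was most abundant in untrained 1 (16069 CPM of the total count), sham 1 (15128) and SBES 1 (4774), with 514 to 1617 in the other 6 libraries. These libraries stand apart within every group, and results that rest on them are given with and without them.

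Expression was compared on the deposited counts with edgeR's quasi-likelihood test, with Benjamini-Hochberg adjustment over 15893 tested genes and a threshold of 0.05. In the pooled comparison 3 genes passed, which is 0.0189% of those tested. Hif3a rose (0.00629% of genes were called higher), and Calca and Cox7a1 fell (0.0126% were called lower). At an unadjusted p under 0.05 there were 1158 genes (7.29%), 630 higher (3.96%) and 528 lower (3.32%), against 794.65 expected by chance. The 6 injured and 3 sham libraries did not overlap for 281 genes higher in injured libraries (1.77%) and 296 lower (1.86%). DESeq2 called 120 of 15867 genes (0.756%), 84 higher (0.529%) and 36 lower (0.227%), with all 3 edgeR calls among them. Over all tested genes 50.6% were higher, so neither direction prevailed. Levels are CPM, counts per 1000000 of the TMM-scaled library total, and differences are log2 fold changes of injured minus sham with a standard error (SE).

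Calca encodes the precursor of calcitonin and alpha-CGRP, a peptide of motoneurons and sensory neurons. It stood at 213, 276 and 546 CPM in sham 1 to 3, at 87.3, 66.1 and 44.3 CPM in untrained 1 to 3 and at 63.7, 78.2 and 35.9 CPM in SBES 1 to 3. Every injured library lay below every sham library, and the untrained and SBES libraries spanned the same levels. The mean fell from 345 ± 177 (SD, n = 3) to 62.6 ± 19.6 CPM (n = 6), a log2 fold change of -2.46 (SE 0.31, edgeR adjusted p = 0.0206). Against the same sham libraries the difference was -2.39 (SE 0.41) in untrained and -2.54 (SE 0.41) in SBES libraries. In the motoneuron pool the gene's fall cannot be told from a smaller share of the cells that express it, since fewer cells of a type and less RNA per cell give the same counts. Calca lies on the minus strand of chromosome 7 (mm10, 114631478 to 114636357) next to its close paralog Calcb, which encodes beta-CGRP and whose reads may be shared with it. Calcb had 50.8, 117 and 161 CPM in sham and 33.1 to 55.4 CPM in injured libraries (-1.24, SE 0.28, edgeR adjusted p = 0.252), and only sham 1 overlapped the injured range.

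Cox7a1 encodes the subunit of cytochrome c oxidase, the last complex of the respiratory chain, that heart and skeletal muscle use in place of the common form. Its level was 28.9, 18.7 and 29.9 CPM in sham, 3.90, 4.01 and 7.30 CPM in untrained and 2.79, 5.76 and 7.36 CPM in SBES libraries. The highest injured library was far under the lowest sham library. The mean fell from 25.8 ± 6.22 to 5.18 ± 1.91 CPM (-2.30, SE 0.29, edgeR adjusted p = 0.0206), with -2.35 (SE 0.38) in untrained and -2.26 (SE 0.38) in SBES libraries. Cox7a1 lies on chromosome 7 (plus strand, 30184144 to 30186078). A further muscle-type oxidase subunit, Cox8b, had 4.90, 2.98 and 6.32 CPM in sham and 1.32 to 2.23 CPM in injured libraries (-1.53, SE 0.31, edgeR adjusted p = 0.162). Cox6a2, the muscle form of another subunit, went the other way, with 0.571 to 1.85 CPM in sham and 2.00 to 8.25 CPM in injured libraries (2.31, SE 0.58, adjusted p = 0.291), but its locus overlaps the integrin gene Itgad on the other strand. The strand setting of the counting is not given in the sources used here, so reads of such overlapping pairs cannot be assigned.

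Markers of skeletal muscle were examined beside the oxidase subunits, and the list counts the called Cox7a1 among its lower members. Of 18 listed muscle genes 10 passed the count filter, 5 of them higher and 5 lower, and their summed level ran from 465 to 869 CPM in sham and from 348 to 558 CPM in injured libraries. Most of that sum was Pvalb (635 CPM in sham and 405 CPM in injured libraries on average), a calcium buffer that neurons make too. The myosin heavy chain genes Myh1, Myh2 and Myh4 had at most 2 counts in any library, and Ckm, the muscle creatine kinase, at most 9, all named as defining genes of muscle after their values were seen. None of the 8 muscle genes below the filter was at 0 in all 9 libraries.

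Hif3a encodes a hypoxia-inducible factor subunit, several of whose splice forms restrain the other hypoxia factors. Its level was 0.872, 0.698 and 0.382 CPM in sham, 3.17, 3.45 and 5.25 CPM in untrained and 6.91, 6.38 and 7.17 CPM in SBES libraries. All injured libraries were above all sham libraries, and all SBES libraries were above all untrained ones. The mean rose from 0.650 ± 0.248 to 5.39 ± 1.74 CPM (3.09, SE 0.43, edgeR adjusted p = 0.0328), and the difference from sham was 2.65 (SE 0.39) without and 3.43 (SE 0.39) with stimulation. The SBES minus untrained difference was 0.78 and did not pass edgeR (adjusted p = 0.914). Hif3a is the least abundant of the 3 genes also per length, at a mean FPKM of 0.0900 in sham and 0.813 in injured libraries, where Calca stood at 205 and 38.4 and Cox7a1 at 45.7 and 10.2. It lies on the minus strand of chromosome 7 (17031507 to 17062427) and overlaps 4833404L02Rik on the other strand.

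**Figure D1:**
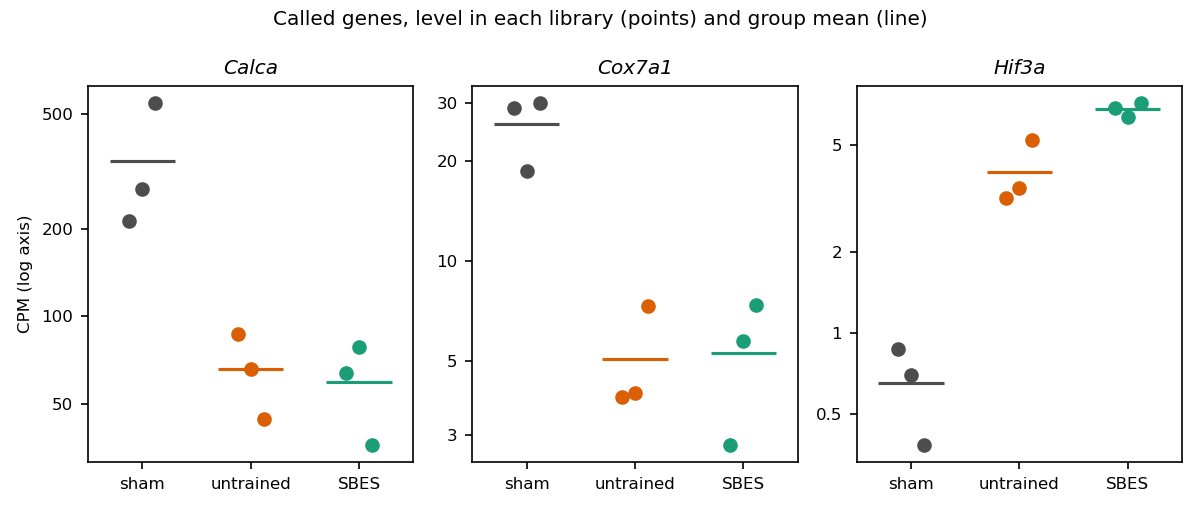
CPM on a log axis of Calca, Cox7a1 and Hif3a, with a point for each of the 9 libraries and a line at each group's mean. Sham libraries lie above all injured ones for Calca and Cox7a1 and below all of them for Hif3a, where SBES libraries (6.38 to 7.17 CPM) also lie above untrained ones (3.17 to 5.25 CPM).

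The calls of these genes depended on single libraries. Calca kept its call without sham 1, sham 2, untrained 1, untrained 2 or SBES 3, and lost it without sham 3 (adjusted p = 0.152), untrained 3 (0.0623), SBES 1 (0.0655) or SBES 2 (0.0800). Cox7a1 lost it without sham 1 (0.0677), sham 3 (0.152), SBES 1 (0.0597) or SBES 2 (0.0800), and Hif3a without any sham library (0.0677, 0.172 and 0.338), untrained 3 (0.0623) or any SBES library (0.0655, 0.103 and 0.0806). The differences themselves lay between -2.86 and -1.96 for Calca, -2.49 and -1.98 for Cox7a1 and 2.78 and 3.38 for Hif3a over all alternatives tried.

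Promoter windows of the called genes are printed because each of the 3 genes separated all injured from all sham libraries. Each window runs from 250 bases before to 50 bases after the transcription start in RefSeq on GRCm38.p6, is written 5′ to 3′ on the gene's own strand and has motif matches in capitals. Motifs searched on both strands were the hypoxia response element core (ACGTG or GCGTG), the CCAAT box (CCAAT), a glucocorticoid and a sterol regulatory element. A run of CACGTG holds the hypoxia core on both strands. The glucocorticoid and sterol elements, whose letters are given with the Map3k6 and Hmgcs1 windows, occur 0 times in these windows. The windows are chr7:114636308-114636607 for Calca, chr7:30183921-30184220 for Cox7a1 and chr7:17062378-17062677 for Hif3a.
Calca: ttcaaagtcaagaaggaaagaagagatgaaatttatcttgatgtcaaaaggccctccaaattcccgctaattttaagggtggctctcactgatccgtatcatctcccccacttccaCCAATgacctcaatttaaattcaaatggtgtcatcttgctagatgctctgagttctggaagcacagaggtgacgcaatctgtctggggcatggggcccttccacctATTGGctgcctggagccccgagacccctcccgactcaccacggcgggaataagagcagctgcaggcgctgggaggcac
Cox7a1: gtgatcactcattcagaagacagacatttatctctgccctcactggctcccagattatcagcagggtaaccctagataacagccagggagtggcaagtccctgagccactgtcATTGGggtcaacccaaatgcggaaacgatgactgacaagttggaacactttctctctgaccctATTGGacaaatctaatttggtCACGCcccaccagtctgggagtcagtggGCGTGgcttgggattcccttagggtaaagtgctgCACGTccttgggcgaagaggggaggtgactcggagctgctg
Hif3a: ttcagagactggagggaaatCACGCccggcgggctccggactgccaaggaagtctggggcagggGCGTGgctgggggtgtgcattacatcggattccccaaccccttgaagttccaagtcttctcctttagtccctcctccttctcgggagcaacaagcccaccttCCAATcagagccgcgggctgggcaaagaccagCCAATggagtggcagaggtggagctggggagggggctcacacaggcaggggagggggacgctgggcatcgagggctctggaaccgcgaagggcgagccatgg
The hypoxia core occurs 3 times in the Cox7a1 window, 2 times in that of Hif3a and 0 times in that of Calca. Of all 32851 promoter windows 43.8% hold that core and 37.4% hold a CCAAT box, so a match is a description of the letters and not a binding site.

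Genes that did not pass but had the smallest p among well expressed, separated genes are given as values. Several are genes of blood vessel walls. Eng, a co-receptor for TGF-beta in endothelium, had 6.65 to 9.04 CPM in sham and 14.3 to 31.9 CPM in injured libraries (1.43, SE 0.28, edgeR adjusted p = 0.153). Esam, an endothelial adhesion molecule, averaged 16.7 ± 6.06 CPM in sham and 39.6 ± 8.50 CPM in injured libraries (1.24, SE 0.26). Slc2a1, the glucose transporter GLUT1 of the blood-brain barrier, had 101, 145 and 120 CPM in sham, 227, 233 and 249 CPM in untrained and 282, 291 and 510 CPM in SBES libraries (1.29, SE 0.28). All of these separated the injured from the sham libraries, and Slc2a1 also separated untrained from SBES libraries, with SBES minus untrained at 0.61 (edgeR adjusted p = 0.914). Srgn, the proteoglycan serglycin of secretory granules, stood at 11.7 to 16.7 CPM in sham and 23.2 to 44.1 CPM in injured libraries (1.12, SE 0.25). Eng overlaps Fpgs, and Slc2a1 overlaps antisense genes.

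The endothelial list gives the values of vessel genes as a set, and it is not independent of the genes named above. Of its 22 tested members 21 were higher in injured libraries, with a median of 0.66 where that of all genes was 0.0046. Against sham the median was 0.63 in untrained and 0.36 in SBES libraries. At an unadjusted p under 0.05 there were 9 higher members (all genes: 3.96%), and 4 separated the groups (all genes: 1.77%). None passed edgeR over all genes and 4 passed DESeq2 upwards (all genes: 0.529%). The summed level of the list ran from 1760 to 2397 CPM in sham and from 2541 to 3369 CPM in injured libraries, without overlap. Pecam1, the adhesion molecule CD31, was at 1.28 (SE 0.38), or 1.94 without sham 2, while Cldn5, the main claudin of the barrier, was at 0.25 (SE 0.34) with 91.3 to 142 CPM in sham and 60.8 to 215 CPM in injured libraries. Flt1, a VEGF receptor chosen after its values were seen, had 8.56 to 17.6 CPM in sham and 21.1 to 29.4 CPM in injured libraries. All listed endothelial genes were detected, and what share of the vessel values came from vessel cells in the aspirates was not tested.

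Cold-inducible RNA-binding proteins formed a pair. Cirbp averaged 86.3 ± 8.98 CPM in sham and 207 ± 56.0 CPM in injured libraries (1.26, SE 0.25, edgeR adjusted p = 0.153), and Rbm3 42.0 ± 7.35 and 90.6 ± 23.1 CPM (1.11, SE 0.25, adjusted p = 0.244). Both separated the groups. Cirbp was at 1.06 in untrained and 1.44 in SBES libraries, and Rbm3 at 1.10 and 1.12. Rbm3 overlaps its antisense gene Rbm3os.

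The other genes with higher values, none of which passed edgeR, have varied roles. Phyhd1, a dioxygenase domain gene, had 7.74, 7.24 and 6.60 CPM in sham, 15.3, 20.7 and 21.4 CPM in untrained and 26.9, 36.0 and 36.8 CPM in SBES libraries (1.87, SE 0.30, edgeR adjusted p = 0.0892). Ada, adenosine deaminase, which turns adenosine into inosine, had 2.07, 1.90 and 1.91 CPM in sham, 4.43, 9.07 and 9.71 CPM in untrained and 10.9 to 19.2 CPM in SBES libraries (2.45, SE 0.40, adjusted p = 0.0970). Sult1a1, a phenol sulfotransferase, had 6.97, 14.0 and 9.38 CPM in sham, 26.5, 33.9 and 63.5 CPM in untrained and 69.9, 126 and 115 CPM in SBES libraries (2.83, SE 0.51, adjusted p = 0.145). In all 3 genes the sham, untrained and SBES libraries formed separate, rising ranges. Phyhd1 overlaps the predicted genes Gm28035 and Gm28038 on its own strand, and Sult1a1 overlaps Sgf29. Etnppl, an astrocytic lyase of phosphoethanolamine, averaged 41.2 ± 6.69 CPM in sham and 100 ± 32.7 CPM in injured libraries (1.28, SE 0.28). Hrct1 was at 1.48 (SE 0.30), and Tekt4, a tektin of ciliary microtubules, at 2.36 (SE 0.53), with 26.5 CPM in SBES 3 and at most 11.8 CPM elsewhere.

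Among genes with lower values, Serpinb1a, an inhibitor of neutrophil proteases, had 92.1, 162 and 170 CPM in sham, 33.8, 66.4 and 56.9 CPM in untrained and 22.2, 32.2 and 40.4 CPM in SBES libraries (-1.75, SE 0.31, edgeR adjusted p = 0.131). Bfsp2, a beaded filament protein of the lens, averaged 46.9 ± 11.1 CPM in sham and 15.9 ± 6.31 CPM in injured libraries (-1.55, SE 0.30). Uts2b, the precursor of a urotensin-related peptide and a motoneuron marker here, had 9.91, 34.5 and 28.7 CPM in sham, 0.595, 7.18 and 3.86 CPM in untrained and 0.446, 3.12 and 0.928 CPM in SBES libraries (-3.15, SE 0.64, adjusted p = 0.166). No injured library of these 3 genes reached the lowest sham library. Gkn3, a gastrokine gene, averaged 8.77 ± 1.98 CPM in sham and 1.70 ± 1.06 CPM in injured libraries (-2.34, SE 0.48), with -1.75 in untrained and -3.45 in SBES libraries. Ninj2, a membrane adhesion protein, was at -1.77 (SE 0.38), and Gng8, a G protein gamma subunit, at -1.10 (SE 0.25).

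**Figure D2:**
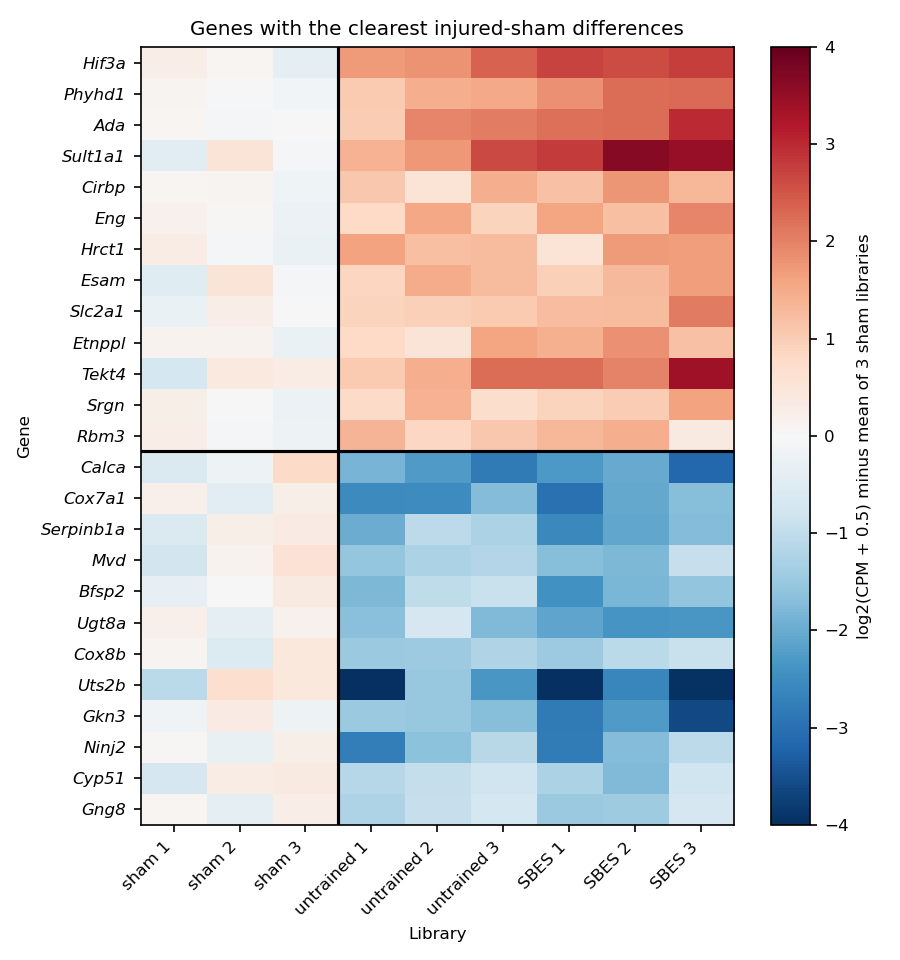
Colour gives log2(CPM + 0.5) of each library (columns) minus the mean of the 3 sham libraries, for 25 genes (rows): Hif3a, the 12 genes with higher and the 12 with lower values. Injured columns are red throughout the upper block and blue throughout the lower one, since separation of the groups was a condition for naming them (Hif3a was named as a called list member), and for Sult1a1 and Ada every SBES column is deeper than every untrained one.

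Both injured groups were also set against sham separately, with a coefficient per group. Since they share the 3 sham libraries, their values are given side by side and no likeness is drawn from them. Among the 25 genes, the closest pairs of values were those of Ninj2 (-1.77 and -1.76) and Rbm3 (1.10 and 1.12). SBES values were larger for Sult1a1 (3.35 against 2.02), Ada (2.81 against 1.98), Phyhd1 (2.21 against 1.41), Ugt8a (-2.33 against -1.32) and Gkn3 (-3.45 against -1.75). No gene differed between SBES and untrained libraries by edgeR (0 called, 0% of tested genes), at a smallest adjusted p of 0.456. At an unadjusted p under 0.05 there were 854 such genes (5.37%), and DESeq2 called 33. Cox8b was the gene of the 25 whose untrained value (-1.70) most exceeded its SBES value (-1.37).

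**Figure D3:**
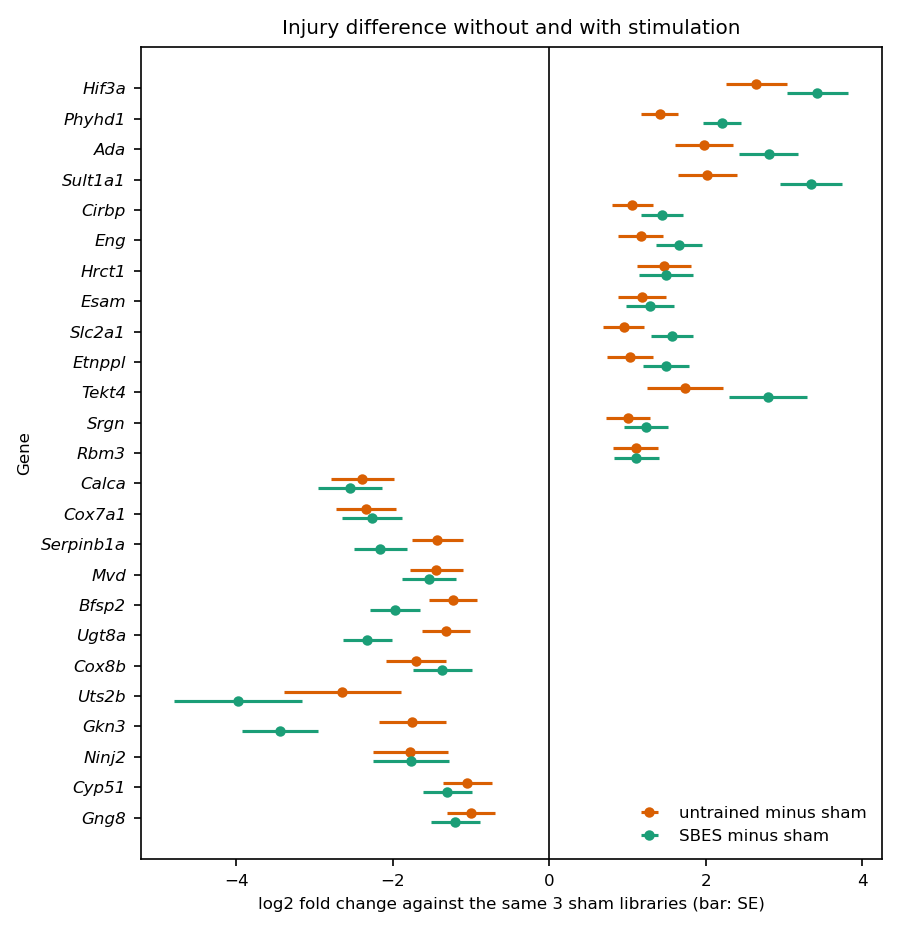
Log2 fold change against the same 3 sham libraries, with its SE as a bar, of untrained (orange) and SBES (green) libraries for the 25 genes. All 50 points lie on the side of 0 given by the pooled comparison. That was fixed in advance, since all 25 genes separate injured from sham libraries. Bars of both groups overlap for Calca (-2.39 and -2.54) and Cox7a1 (-2.35 and -2.26). No likeness is drawn from this, since both groups share the sham libraries.

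Targets of the glucocorticoid receptor had the most positive median of the 53 gene lists. The lists were chosen with earlier results of these data known, so this rank only describes them, and Sult1a1, named above for its values, is a member. Of 29 tested members 27 were higher in injured libraries, 19 of them at an unadjusted p under 0.05, and 9 separated the groups, while 2 were lower. The median was 1.49, and none passed edgeR over all genes, where 11 passed DESeq2. Of all genes 3.96% were higher at that unadjusted p, 1.77% separated upwards and 0.529% passed DESeq2 upwards. The list's median against sham lay at 0.34, 0.60 and 0.76 in untrained 1 to 3 and at 1.87, 1.57 and 2.22 in SBES 1 to 3, against -0.20 to 0.09 in the sham libraries. All injured libraries thus lay above all sham libraries and all SBES above all untrained ones. Median log2 fold changes of the members were 0.61 in untrained and 2.18 in SBES libraries.

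Single targets followed that order in part. Plin4, a perilipin that coats lipid droplets, had 0.545, 0.444 and 0.382 CPM in sham, 1.39, 3.23 and 11.8 CPM in untrained and 14.7, 16.7 and 28.9 CPM in SBES libraries (4.82, SE 0.92, edgeR adjusted p = 0.153). Fkbp5, a co-chaperone that limits the receptor, had 7.08, 12.8 and 9.49 CPM in sham, 11.7, 17.0 and 45.2 CPM in untrained and 49.9, 38.1 and 65.5 CPM in SBES libraries (1.94, SE 0.49, adjusted p = 0.291). For Fkbp5 untrained 1 lay below sham 2 and SBES 2 below untrained 3, so both orders were broken. Per1, a clock gene, was at 1.89 (SE 0.48), with 1.58 to 1.71 CPM in sham and 2.12 to 12.4 CPM in injured libraries. Plin4 overlaps Hdgfl2. Chosen after their values were seen, Ddit4, an inhibitor of mTOR signalling, had 5.56, 5.52 and 7.14 CPM in sham, 7.93, 8.74 and 13.8 CPM in untrained and 39.0, 22.7 and 32.4 CPM in SBES libraries (1.76, SE 0.49), and the transcription factors Klf15 and Klf9 were at 1.40 (SE 0.36) and 1.07 (SE 0.29). For Ddit4 the SBES minus untrained difference was 1.63 (edgeR adjusted p = 0.456). Nfkbia, the NF-kB inhibitor, likewise chosen, stood at 57.9 to 86.8 CPM in sham, 94.8 to 125 CPM in untrained and 223 to 553 CPM in SBES libraries (1.60, SE 0.52).

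Not all members went the same way. Hsd11b1, which regenerates active glucocorticoid inside cells and was chosen after its values were seen, had 72.3, 141 and 195 CPM in sham and 21.3 to 99.3 CPM in injured libraries (-1.23, SE 0.38, edgeR adjusted p = 0.421). The receptor gene Nr3c1, chosen likewise, was at -0.21 with 29.5 and 25.5 CPM on average in sham and injured libraries. Cdkn1a, the cell cycle inhibitor p21, and Lcn2, the iron-binding lipocalin 2, were at 2.74 (SE 0.87) and 3.06 (SE 1.09), and their values were mostly those of SBES libraries. Cdkn1a had 60.4 to 226 CPM in untrained and 377 to 1517 CPM in SBES libraries, against 55.7 to 80.0 CPM in sham. Lcn2 had 22.5 to 34.0 CPM in untrained and 129 to 632 CPM in SBES libraries, against 7.03 to 41.6 CPM in sham. Both were highest in SBES 3, without which they were at 1.81 and 1.85, and neither untrained range was clear of sham.

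Promoter windows of Map3k6 and Hmgcs1 are printed because they hold the elements named for their lists. Map3k6, a stress kinase gene of the glucocorticoid list chosen after its values were seen, had 0.654 to 1.90 CPM in sham and 2.06 to 15.4 CPM in injured libraries (2.40, SE 0.65). Hmgcs1 makes the precursor of mevalonate in cholesterol synthesis and is described with its list. Capitals mark the glucocorticoid element (GNACA and TGTNC spaced by 3 bases), the sterol regulatory element TCACNCCAC, the hypoxia core and the CCAAT box, on either strand. The windows are chr4:133240568-133240867 and chr13:119690101-119690400 (GRCm38.p6, RefSeq).
Map3k6: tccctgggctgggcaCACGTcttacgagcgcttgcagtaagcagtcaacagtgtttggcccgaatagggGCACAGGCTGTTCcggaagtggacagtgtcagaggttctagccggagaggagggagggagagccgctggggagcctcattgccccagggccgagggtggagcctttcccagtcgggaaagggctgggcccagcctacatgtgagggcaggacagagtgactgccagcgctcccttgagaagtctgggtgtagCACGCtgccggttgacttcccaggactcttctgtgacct
Hmgcs1: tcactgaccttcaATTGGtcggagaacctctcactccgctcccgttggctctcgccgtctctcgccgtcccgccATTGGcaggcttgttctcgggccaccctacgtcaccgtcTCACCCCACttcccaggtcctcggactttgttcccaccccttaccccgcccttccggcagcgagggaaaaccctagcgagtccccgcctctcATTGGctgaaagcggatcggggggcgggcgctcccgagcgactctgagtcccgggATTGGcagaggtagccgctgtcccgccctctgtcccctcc
The glucocorticoid element occurs in 0.475% of all promoter windows and in 5 of the 39 windows of the glucocorticoid list (12.8%), which belong to Fam107a, Map3k6, Mt1 and Sgk1. The sterol element occurs in 1.24% of all windows and in 1 of 20 windows of the cholesterol list (5%), that of Hmgcs1. The CCAAT box occurs in 16 of those 20 (80.0%), against 37.4% of all windows. The hypoxia core occurs in 26 of 31 windows of the hypoxia list (83.9%), against 43.8% of all windows. It also occurs in 66.7% of the glucocorticoid list's windows and 60.0% of the cholesterol list's. A share above that of all windows is thus not particular to the hypoxia list.

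Cholesterol biosynthesis was the list in which every tested member was lower. All 24 members had negative values, with a median of -0.80 where that of all genes was 0.0046. At an unadjusted p under 0.05 there were 14 lower members (all genes: 3.32%), and 7 separated the groups (all genes: 1.86%). None passed edgeR over all genes and 4 passed DESeq2 downwards (all genes: 0.227%). Medians were -0.68 in untrained and -0.89 in SBES libraries. By library the list's median against sham was -0.57, 0.21 and 0.37 in the sham libraries, -0.89, -0.66 and -0.42 in untrained and -0.72, -1.15 and -0.57 in SBES libraries, so sham 1 lay at the level of the injured libraries. With each library left out in turn the median lay between -1.01 and -0.64.

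Enzymes along the whole chain shared the direction. Mvd, which makes isopentenyl diphosphate from mevalonate diphosphate, had 34.5, 64.4 and 86.6 CPM in sham, 19.2, 23.7 and 25.5 CPM in untrained and 17.4, 16.2 and 30.5 CPM in SBES libraries (-1.49, SE 0.27, edgeR adjusted p = 0.145). Cyp51, the lanosterol demethylase, averaged 72.1 ± 25.2 CPM in sham and 32.1 ± 7.35 CPM in injured libraries (-1.17, SE 0.26). Dhcr7, which makes cholesterol in the final step, had 19.1, 18.9 and 25.5 CPM in sham and 7.49 to 12.9 CPM in injured libraries (-1.14, SE 0.22, adjusted p = 0.153). In each the lowest value in sham was above the highest in injured libraries. Chosen after their values were seen, Hmgcs1 was at -0.92 (SE 0.24), Msmo1 at -1.18 (SE 0.27) and Sc5d at -0.66 (SE 0.20). Mvd overlaps Gm20388 and Cyp51 overlaps Akap9.

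**Figure D4:**
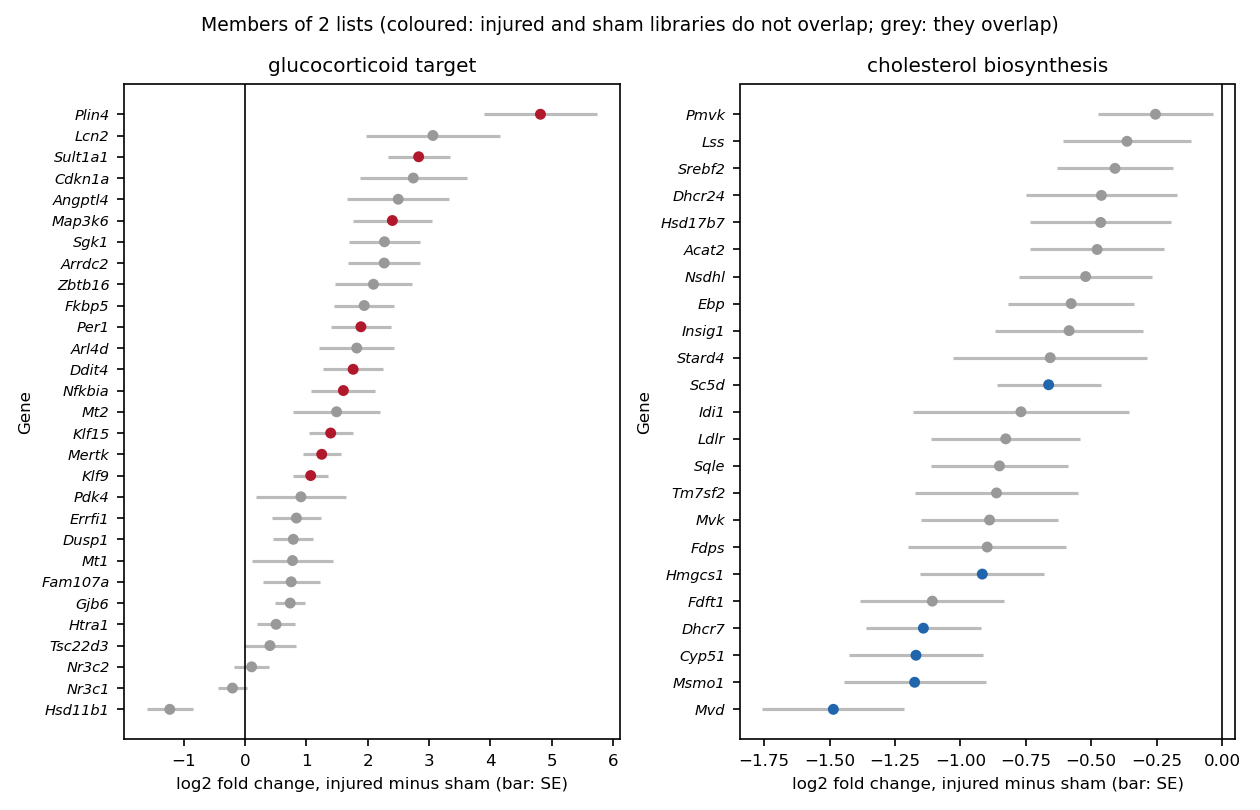
Log2 fold change of injured minus sham with its SE as a bar for the 29 tested glucocorticoid targets (left) and 23 of the 24 tested cholesterol synthesis genes (right), coloured where the 6 injured and 3 sham libraries do not overlap. Targets reach from -1.23 (Hsd11b1) to 4.82 (Plin4), and every cholesterol gene shown lies below 0, Mvd lowest at -1.49.

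Markers of oligodendrocytes, the myelin-forming cells, were lower alongside cholesterol genes. Of 23 tested members 21 were lower, with a median of -0.69 (-0.55 in untrained, -0.89 in SBES libraries). At an unadjusted p under 0.05 there were 12 lower members (all genes: 3.32%), and 5 separated the groups (all genes: 1.86%). The list's summed level ran from 58574 to 127172 CPM in sham and from 45115 to 91102 CPM in injured libraries, so the ranges overlapped. The largest member by level, Mbp (myelin basic protein), was at -0.37 (SE 0.34). Ugt8a, which makes galactosylceramide for myelin, had 80.3, 53.4 and 77.9 CPM in sham, 21.5, 43.4 and 20.0 CPM in untrained and 15.6, 13.1 and 13.5 CPM in SBES libraries (-1.73, SE 0.33, edgeR adjusted p = 0.153). Other enzymes of that lipid path, the hydroxylase Fa2h and the sulfotransferase Gal3st1, were at -0.85 (SE 0.22) and -0.83 (SE 0.22), and both separated the groups. All markers that the table holds were detected, and their part in the cholesterol values was not tested.

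Precursor-stage genes of the lineage were mixed. Of 14 tested precursor markers 5 were higher and 9 lower (median -0.08, or -0.18 without untrained 2 and 0.0076 without untrained 1), but Gpr17 and Enpp6, which mark cells on the way to myelination, were at -1.65 (SE 0.46) and -0.98 (SE 0.30). Gpr17 averaged 5.89 ± 2.71 CPM in sham and had 0.446 to 3.90 CPM in injured libraries, and Enpp6 had 41.0 to 52.6 and 15.0 to 40.2 CPM. Elovl7, a fatty acid elongase, was at -1.05 (SE 0.27).

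**Figure D5:**
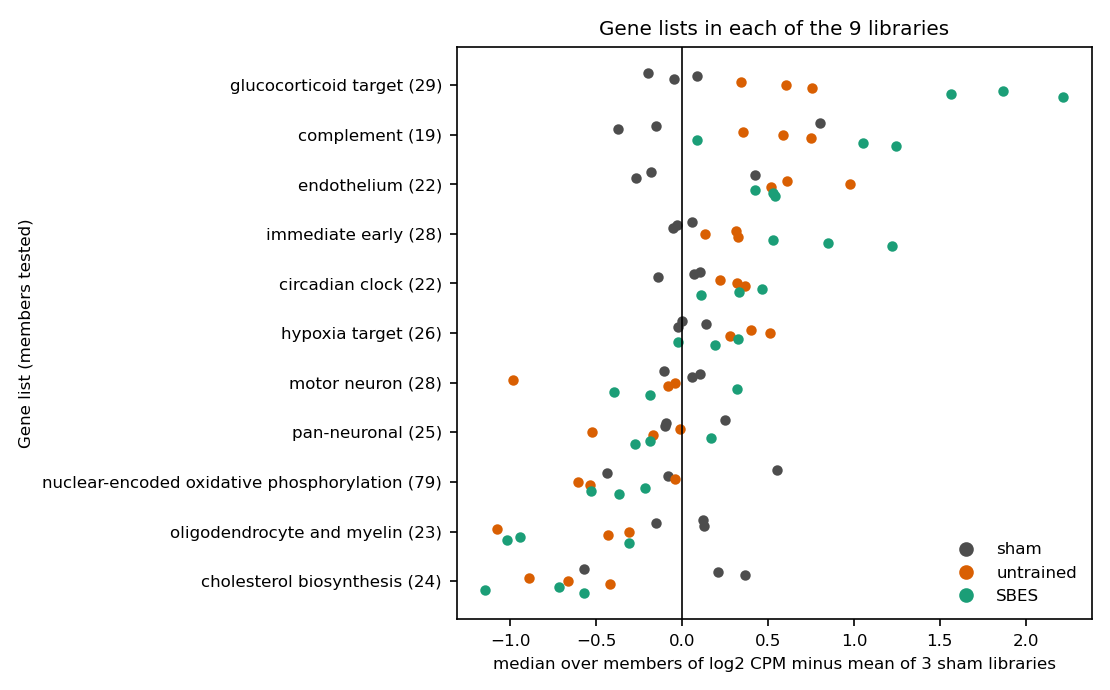
For 11 gene lists (rows, tested members in brackets), each point is 1 library's median over members of log2 CPM minus the mean of the 3 sham libraries. Glucocorticoid targets order sham, untrained and SBES libraries without overlap, while for complement and cholesterol genes sham 1 (0.80 and -0.57) lies among the injured libraries.

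Hypoxia targets, counted with Hif3a, were less uniform. Of 26 tested members 19 were higher, with a median of 0.35. At an unadjusted p under 0.05 there were 5 higher members (all genes: 3.96%). The 4 that separated the groups (all genes: 1.77%) were Hif3a, Slc2a1, Adm and Ddit4. Hif3a was called by edgeR (all genes: 0.00629% higher), and 4 members passed DESeq2 upwards (all genes: 0.529%). Adm, the precursor of the vasodilator adrenomedullin, had 5.67, 8.63 and 9.32 CPM in sham, 28.4, 33.2 and 19.2 CPM in untrained and 13.04 to 19.6 CPM in SBES libraries (1.41, SE 0.33, edgeR adjusted p = 0.255). Unlike Hif3a, Adm was higher in untrained than in SBES libraries on average, with slight overlap and SBES minus untrained at -0.82 (edgeR adjusted p = 0.896). Vegfa, chosen after its values were seen, was at 0.72, and Hif1a, chosen likewise, was at -0.03.

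Nuclear-encoded genes of oxidative phosphorylation were lower in 75 of 79 tested members, 15 at an unadjusted p under 0.05, with a median of -0.43. Of all genes 3.32% were lower at that p and 1.86% separated downwards. Cox7a1 was called and 5 members in all separated the groups downwards, Cox6a2 upwards. The median was -0.11 without sham 1, which had the highest level of the list. Mitochondrially encoded genes had a median of -0.32, which was 0.71 without sham 1 and -0.90 without SBES 1, the libraries with the largest shares of these genes.

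Activity-dependent immediate early genes were higher in 27 of 28 tested members, with a median of 0.52 (0.26 in untrained and 0.86 in SBES libraries). At an unadjusted p under 0.05 there were 7 higher and 1 lower (all genes: 3.96% and 3.32%). The lower member was Arc, a synaptic capsid-like protein that follows neuronal firing, at 19.7, 20.2 and 19.6 CPM in sham, 12.4, 13.1 and 12.2 CPM in untrained and 3.68, 7.42 and 12.4 CPM in SBES libraries (-0.95, SE 0.31, edgeR adjusted p = 0.469). All injured libraries lay under all sham libraries for Arc, against the direction of the rest of the list. Zfp36, which speeds the decay of cytokine mRNAs, stood at 4.73 to 6.82 CPM in untrained and 9.78 to 28.9 CPM in SBES libraries, against 3.24 to 5.77 CPM in sham (1.53, SE 0.56).

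Genes of the circadian clock were higher in 18 of 22 tested members, with a median of 0.35. At an unadjusted p under 0.05 there were 6 higher members (all genes: 3.96%), and 3 separated the groups (all genes: 1.77%). Beside Per1 these were Nr1d1, the repressor REV-ERB alpha, at 22.2 ± 5.13 CPM in sham and 38.2 ± 7.17 CPM in injured libraries (0.78, SE 0.22), and Tef, a PAR bZIP factor, at 37.9 ± 7.04 and 57.3 ± 7.41 CPM (0.60, SE 0.19). The summed level of the list ran from 363 to 447 CPM in sham and from 507 to 579 CPM in injured libraries, without overlap. The hour at which tissue was taken is not given in the sources used here. Nr1d1 overlaps Thra.

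Death receptor and p53 target genes had modest positive values. Of 19 tested p53 targets 14 were higher (median 0.30), and of 31 apoptosis genes 23 (median 0.31). With 1 library left out the p53 median lay between 0.24 (without SBES 3) and 0.50 (without untrained 2). It was 0.44 without sham 1, 0.38 without untrained 1 and 0.46 without SBES 1. Fas, the death receptor, had 4.14, 4.63 and 4.85 CPM in sham, 7.14, 7.13 and 9.17 CPM in untrained and 9.58, 15.9 and 13.4 CPM in SBES libraries (1.19, SE 0.30, edgeR adjusted p = 0.297). Bbc3, the death-promoting protein PUMA, averaged 3.13 ± 0.268 and 6.02 ± 1.81 CPM (0.94, SE 0.31). Both separated the groups.

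Immune and glial lists leaned on sham 1. Complement genes were higher in 15 of 19 tested members (median 0.80), and the median was 1.46 without sham 1, 0.49 without sham 2 and 0.40 without sham 3. C1ra, a protease that starts the classical path, averaged 0.254 ± 0.137 CPM in sham and 1.27 ± 0.700 CPM in injured libraries (2.21, SE 0.58). C5ar1, the receptor of the fragment C5a, was at 1.70 (SE 0.61) with overlap. Reactive astrocyte genes had a median of 0.47, or 1.52 without sham 1, and microglial markers had 0.07, or 0.53 without it and 0.01 to 0.25 without any other single library. Gfap, the astrocyte filament, was at 0.19 (SE 0.39) with 1665 to 3095 CPM in sham and 1149.6 to 4379 CPM in injured libraries.

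Markers of motoneurons themselves were checked in every library. Of 28 tested members 12 were higher and 16 lower (median -0.12, or -0.20 to -0.06 with 1 library left out), and the 6 at an unadjusted p under 0.05 were all lower. Chat, which makes acetylcholine, had 19.6 to 34.6 CPM in sham and 20.2 to 33.8 CPM in injured libraries (-0.14, SE 0.24). Slc18a3, the vesicular transporter nested in the Chat locus, was at -0.10 (SE 0.37), the filament gene Prph at -0.27 (SE 0.35), and the transcription factors Isl1 and Mnx1 at 0.18 (SE 0.30) and -0.51 (SE 0.37). None of these 5 markers separated the groups. Without sham 1 Chat was at -0.33 and Prph at -0.59, and without sham 2 Mnx1 was at -0.09. In the same list 4 members separated downwards and 0 upwards, Calca, Uts2b, Chodl and Mmp9, where 1.86% of all genes separated downwards. Chodl, a marker of fast motoneurons chosen after its values were seen, had 32.9 to 44.4 CPM in sham and 10.97 to 29.0 CPM in injured libraries (-0.996, SE 0.29), and Mmp9, a metalloproteinase of fast motoneurons chosen likewise, was at -0.61 (SE 0.20). The summed level of the list ran from 1704 to 2142 CPM in sham and from 823 to 1648 CPM in injured libraries, without overlap. That sum includes the called gene Calca, whose levels are given above. With Calca taken out, SBES 3 (1648 CPM with it) lies above sham 2 (1704 CPM with it). The ranges of the other members' sum thus overlap. Pan-neuronal genes were lower in 19 of 25 members with a median of -0.16, which was -0.01 without sham 1 and -0.06 without untrained 2, and none of them reached an unadjusted p under 0.05. Transcripts of oligodendrocytes, astrocytes, microglia and endothelium were present in all 9 libraries beside those of motoneurons. The oligodendrocyte list summed to 45115 to 127172 CPM and the astrocyte list to 16529 to 25418 CPM. Both lie far above the 823 to 2142 CPM of the motoneuron list. Which cells a difference came from was not tested.

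Cytoskeletal and growth genes of neurons gave mixed values. Nefl, the light neurofilament, had 2905 to 3268 CPM in sham and 1022 to 2951 CPM in injured libraries (-0.75, SE 0.28), and the tubulin Tuba1a was at -0.85 (SE 0.30). Ecel1, a membrane peptidase known to rise in injured motoneurons, had 26.3, 22.7 and 25.4 CPM in sham, 43.2, 35.5 and 57.3 CPM in untrained and 80.3, 44.2 and 63.5 CPM in SBES libraries (1.12, SE 0.26, edgeR adjusted p = 0.252). All injured libraries exceeded all sham libraries for Ecel1. Cebpd, a transcription factor of the same regeneration-associated list, was at 2.41 (SE 0.78) with 194 CPM in SBES 3 and at most 42.1 CPM elsewhere, and at 1.40 without SBES 3.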

How the data were processed

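Smart-seq2 libraries of aspirated motoneurons were compared. Per the labels' protocols, the authors aligned paired-end reads with Hisat2 2.0.1 and counted genes with HTSeq 0.6.1. The submitters' processing notes name mm10 as the build, and neither annotation release nor strand setting is given in the sources used here. As deposited by the authors, the table holds whole-number counts and FPKM (counts scaled by exonic length and library total, per the file headers) for 55401 genes in 9 libraries. All per-sample columns were used (0 left out).

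Counts were filtered with filterByExpr, which left 15893 genes, scaled by TMM and fitted with edgeR 4.0.16 (R 4.3.3), with 6 injured libraries against 3 sham. A second fit had a coefficient per group. FPKM served for naming and for levels between genes. Replicate numbers were not treated as pairs. Named genes were up to 12 per direction by fold change among called genes, filled by smallest p (absolute log2 fold change of at least 1, mean FPKM of at least 5, groups not overlapping), up to 3 members of smallest p and every called member of each of 53 lists, and fixed markers. Genes outside the rule are marked in the text, and some genes are not reported here. Members and lists were chosen with earlier results of these data known. Lists are described by counts and medians, with no test of the list. Alternatives were DESeq2 1.42.0, limma 3.58.1 (voom with quality weights), RLE scaling, other filters, robust dispersion, a replicate block, and leaving out libraries. Counts cannot separate PCR copies from molecules.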

Additional observations from a re-analysis of the deposited data

Results flagged for a closer look

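Within the 6 injured libraries, 10 of the genes checked had a library whose gap to its nearest neighbour exceeded Dixon's limit for 6 values, out of 92 genes. SBES 3, stimulated at 20 Hz, was the high library for 6 of them. It held 510.1 CPM of Slc2a1 (next 291 CPM), 26.5 CPM of Tekt4 (next 11.8), 1517 CPM of Cdkn1a (next 436), 632 CPM of Lcn2 (next 138), 29.4 CPM of Flt1 (next 23.2) and 194 CPM of Cebpd (next 42.1). Untrained 2 was high for the myelin lipid gene Ugt8a at 43.4 CPM (next 21.5) and the elongase Elovl7 at 25.5 CPM (next 13.3), and low for the neuronal splicing factor Rbfox3 at 65.6 CPM (next 83.7). SBES 2 was low for the sterol desaturase Sc5d at 37.1 CPM (next 56.3). Chance alone flags about 5% of groups of 6 values drawn from a single normal distribution. These CPM values mix untrained libraries with SBES libraries of different frequency, so the number flagged cannot be judged against that share.

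P2ry12, a purine receptor of resting microglia, moved in opposite directions in the injured groups, with all 3 untrained libraries above the sham mean and all 3 SBES libraries below it. The SBES minus untrained difference was -0.94, and it did not pass edgeR (adjusted p = 0.867).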

How the results depend on the processing

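Counts of called genes depended on the test and the libraries more than the differences did. Against the 3 genes of edgeR, DESeq2 called 120, limma voom with quality weights 367, edgeR with no low-count filter 267 and edgeR with a coefficient per group 15, and all 3 genes were called in each. Leaving out 1 library gave 0 to 8 calls. Choices made after seeing the data were to leave out sham 1 and SBES 1, the libraries of low scaling factor (0 calls), or the 3 libraries of most Malat1 (64 calls). SBES against untrained gave 33 calls by DESeq2, 186 with no filter, 13 without the libraries of most Malat1 and 0 to 1 with 1 library left out. A replicate block gave 14 calls. The numbers were not taken as pairs, since no label ties them. Of 9 same-number pairs 7 correlated above 0.1, with a range of -0.17 to 0.39. Pairs of different number ran from -0.36 to 0.27, and 4 libraries correlated best with their own number. These correlations do not settle whether the numbers are pairs. The pairs of number 1 correlated at 0.24 to 0.39, and the 3 libraries of most Malat1 all carry number 1, and whether same-number libraries share a source was not tested. Of 1735 recomputed gene values 1519 kept direction and side of the threshold, and 17, of 7 genes that did not pass, changed sign. With 1 library left out these ran from -0.61 to 0.059 for Mbp, -0.41 to 0.18 for Slc18a3, -0.48 to 0.26 for Snap25, -0.024 to 0.53 for Gfap, -0.45 to 0.59 for Cx3cr1, -0.30 to 0.10 for P2ry12 and -1.97 to 1.56 for Malat1. Without both libraries of low scaling factor Snap25 was at 0.15, Cx3cr1 at 0.63, P2ry12 at 0.10 and Malat1 at 1.40. Mbp was at 0.039 and Cx3cr1 at 0.62 without those of most Malat1, and Cx3cr1 at 0.41 with voom. The causes were not tested. Of 1007 recomputed list medians 53 moved by more than the spread between replicates. Hif3a was not tested where a mean FPKM of at least 1 was required.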

Other observations

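Astrocyte genes were divided. Agt, the angiotensin precursor made by astrocytes, averaged 503 ± 150 CPM in sham and 1015 ± 315 CPM in injured libraries (1.01, SE 0.30), while Slc7a10, a serine and glycine transporter, averaged 246 ± 39.7 and 139 ± 43.4 CPM (-0.82, SE 0.25) and the water channel Aqp4 was at -0.80 (SE 0.25), or -0.30 without sham 1. Of 21 tested astrocyte markers 14 were higher and 7 lower, with a median of 0.15, which was 0.29 without untrained 1, 0.04 without sham 2 and -0.01 without SBES 3. Osmr, the oncostatin M receptor that reactive astrocytes raise, was at 1.38 (SE 0.48), or 2.18 without sham 1 and 0.90 without sham 3. None of these genes passed edgeR over all genes.

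Of 30 tested sodium, calcium and HCN channel genes 1 separated the groups upwards and 1 downwards, against 1.77% and 1.86% of all genes, and 0 of 37 potassium channel and 0 of 29 glutamate receptor genes did. Hcn3, a pacemaker channel, had 4.47, 2.41 and 2.29 CPM in sham and 0.925 to 1.36 CPM in injured libraries (-1.37, SE 0.32, edgeR adjusted p = 0.255). Cacna1h, a low-voltage calcium channel, had 1.09 to 1.74 CPM in sham and 1.92 to 3.86 CPM in injured libraries (1.02, SE 0.35). Over the lists of potassium channels, of sodium, calcium and HCN channels and of glutamate receptors the medians were 0.09, 0.07 and 0.06. They were 0.15, 0.46 and 0.27 without sham 1 and -0.02, -0.03 and -0.12 without sham 2, so no direction is read from them.

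Of 29 tested neurotrophic genes 2 were higher and 4 lower at an unadjusted p under 0.05, of 36 collagen, laminin and integrin genes 4 and 1 (median 0.17, or 0.55 without sham 1 and -0.06 without sham 3), and of 37 other matrix genes 0 and 1 (median -0.07, or 0.14 without sham 1). Over all genes 3.96% were higher and 3.32% lower at that p. From these lists, 3 genes of higher value follow. Fgf2, a fibroblast growth factor, had 0.382 to 0.980 CPM in sham and 1.03 to 2.79 CPM in injured libraries (1.57, SE 0.48), and Fn1, fibronectin, was at 1.54 (SE 0.45) with overlap. Itga5, the fibronectin receptor subunit, had 0.109 to 0.317 CPM in sham and 0.891 to 3.46 CPM in injured libraries (2.85, SE 0.56, edgeR adjusted p = 0.153). Heat shock genes were lower in 23 of 28 tested members (median -0.20), with the small chaperone Cryab at -1.19 (SE 0.33) and 765 to 1386 CPM in sham against 268 to 851 CPM in injured libraries. Interferon response genes were higher in 27 of 34 (median 0.21, or 0.39 without sham 3 and 0.13 without untrained 1), with a median of 0.46 in untrained and -0.09 in SBES libraries.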
